A study of Mus musculus with 12 samples.

Results

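The 10 genes described here are the cold-inducible RNA-binding proteins Cirbp and Rbm3, the heat shock proteins Hspa8, Hspa1a, Hspa1b, Hsph1, Hsp90aa1, Dnajb1 and Hspb1, and the heat shock transcription factor Hsf1. They were taken by symbol from the 23420 genes of the count table, and all 10 passed the filter on low counts that left 15306 genes for testing. RNA of inguinal white adipose tissue (iWAT), the subcutaneous depot in which beige adipocytes form in cold, was sequenced from 12 male C57BL/6 mice aged 10 weeks, with 3 mice in each of 4 groups. All mice were homozygous for a floxed HIF2a allele. WT mice carried no Cre, whereas HIF2α AKO mice also carried Adipoq-Cre, which acts in adipocytes and not in the other cells of the fat pad, so that Cre and the deletion always occurred together. Thermoneutral (TN) mice were kept at 30 °C for 1 week and cold-exposed mice at 4 to 6 °C for 3 days. Libraries held from 22368316 to 35204631 reads counted on genes.

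Cells answer a fall and a rise in temperature with different proteins. CIRBP and RBM3 are small glycine-rich RNA-binding proteins that mild cooling induces in cultured cells, where they bind messenger RNAs and affect their stability, polyadenylation and translation. Heat and misfolded protein instead release HSF1, a transcription factor that binds heat shock elements and switches on chaperones of the HSP70, HSP110, HSP90, J-domain and small heat shock protein families. Thermogenic fat is a particular setting for both systems, because the animal is cooled from outside while its beige and brown adipocytes produce heat.

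Short sequences described for these responses were looked up in the promoter windows of RefSeq (GRCm38.p6). These reach from 250 bases before to 50 bases after a transcription start. Windows were matched for 6 of the 10 members, namely Cirbp, Hspa1a, Hspa1b, Hsph1, Dnajb1 and Hspb1. The upstream bases were searched on both strands for the inverted repeat of heat shock elements (GAANNTTC or TTCNNGAA) and for the mild cold element described for Cirbp (TCCCCGCC, or GGCGGGGA on the opposite strand). The first occurred in 12.8% and the second in 4.64% of 32851 promoters. The stretches below, upstream of the start and 5′ to 3′ on the strand of the gene, are shown because they hold the matches, in capitals, and because they show how alike both Hspa1 genes are.
Hspa1a, chr17:34972157-34972316, minus strand: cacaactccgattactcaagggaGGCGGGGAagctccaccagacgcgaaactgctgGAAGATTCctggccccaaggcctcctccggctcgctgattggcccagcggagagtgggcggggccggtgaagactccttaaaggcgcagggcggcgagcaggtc
Hspa1b, chr17:34959239-34959398, minus strand: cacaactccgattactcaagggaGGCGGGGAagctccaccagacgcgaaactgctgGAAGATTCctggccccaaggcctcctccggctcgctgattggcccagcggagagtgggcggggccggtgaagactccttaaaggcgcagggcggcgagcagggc
Hspb1, chr5:135887759-135887878, plus strand: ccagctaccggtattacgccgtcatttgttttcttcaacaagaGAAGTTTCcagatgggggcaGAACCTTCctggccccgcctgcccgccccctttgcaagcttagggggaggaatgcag
Hsph1, chr5:149636337-149636436, minus strand: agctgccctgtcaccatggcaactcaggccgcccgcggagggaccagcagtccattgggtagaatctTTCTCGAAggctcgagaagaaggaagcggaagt
Cirbp, chr10:80167589-80167688, plus strand: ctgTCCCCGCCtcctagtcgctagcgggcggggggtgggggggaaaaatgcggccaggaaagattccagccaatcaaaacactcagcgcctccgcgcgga

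Counted from the start, the heat shock repeat began at -104 in Hspa1a and Hspa1b, at -117 and -97 in Hspb1 and at -33 in Hsph1, or -54 from its other listed start. The mild cold element began at -247 in 1 of the 2 windows of Cirbp and at -137 in Hspa1a and Hspa1b. No match overlapped another, and neither motif had a match upstream in the windows of Dnajb1. A longer form of the heat shock repeat, with 3 units, was also looked up. It occurred in 0.466% of promoters and had no match upstream in the windows of the members. The last 50 bases of the Dnajb1 windows were not found near the start of an annotated Dnajb1 transcript. The same held for the Cirbp window without a match. Over the 160 bases printed, Hspa1a and Hspa1b were identical at 159.

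The members spanned a wide range of levels, compared here as CPM per kilobase of annotated exon and averaged over the 12 libraries. Hspa8, the constitutive HSP70 of the cytosol, was far above the others at 576 CPM per kb, and it ranked 52 of 15306 genes by CPM. Hsp90aa1 followed with 62.3, Cirbp with 45.6, Rbm3 with 40.6, Hspb1 with 39.6, Hsf1 with 21.1, Hsph1 with 15.8 and Dnajb1 with 15.7 CPM per kb. Each of these neighbours in the order overlapped over the libraries. The heat-inducible HSP70 genes were lowest, Hspa1b at 2.25 and Hspa1a at 0.951 CPM per kb, and neither overlapped the gene above it in the order. Reads that aligned to several places were not counted, and these genes share much sequence, so the levels of the pair may be too low. By how much was not tested. The CPM of Hspa8 was between 69.9 and 260 times the summed CPM of Hspa1a and Hspa1b in a library.

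**Figure D1:**
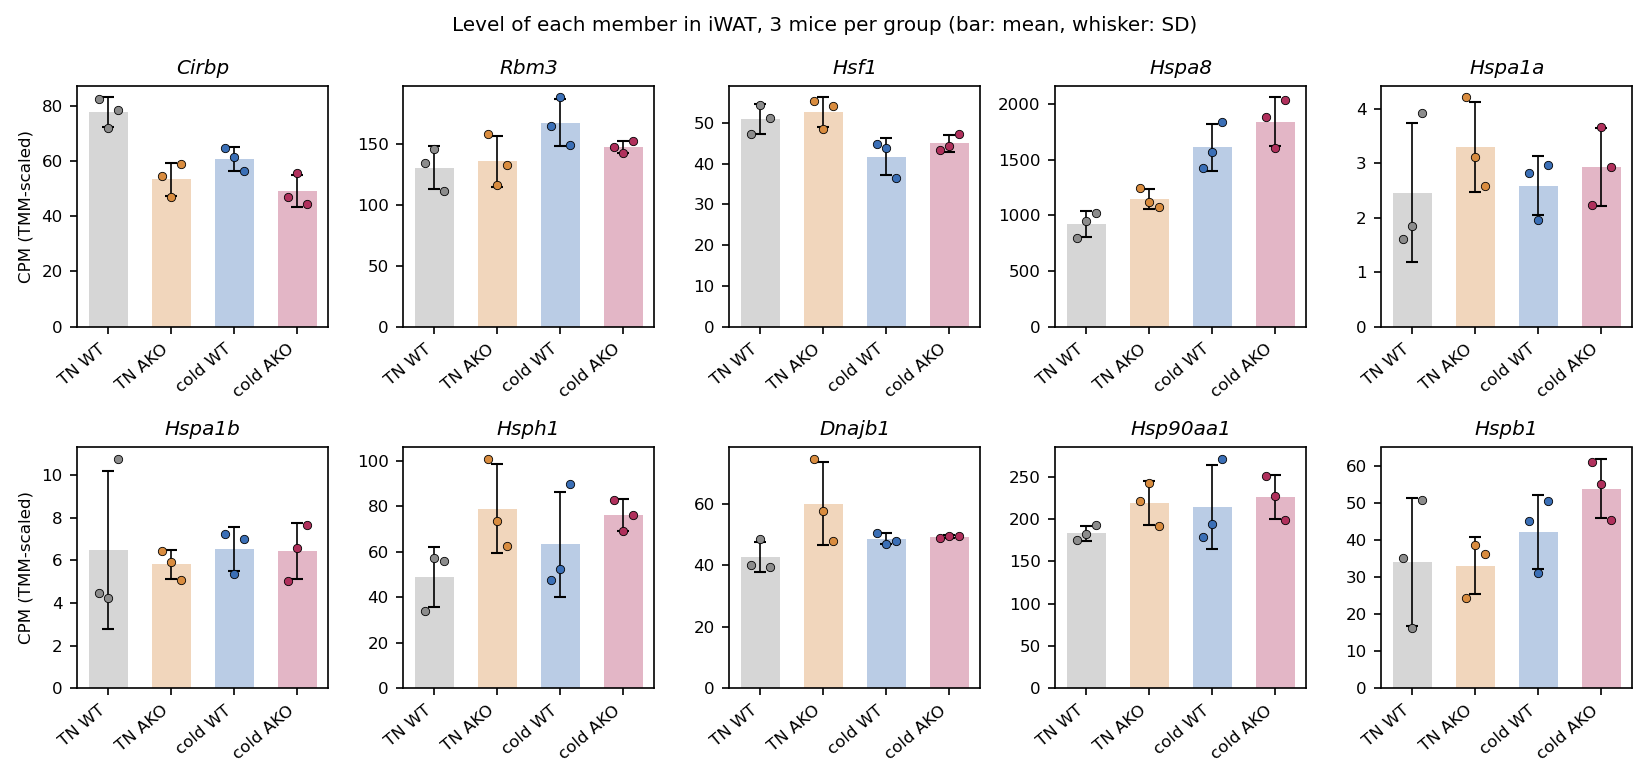
Level of each of the 10 members (CPM after TMM scaling, linear axes from 0) in the 4 groups. Points are mice, bars the mean and whiskers the SD of 3 mice. Hspa8 shows cold groups wholly above TN groups, whereas Cirbp is highest in TN WT.

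Before the members were compared, the libraries and their labels were examined. Epas1, which encodes HIF2α, did not separate the genotype labels in the direction of a deletion. Its CPM lay between 278 and 430 in TN WT, 289 and 394 in TN HIF2α AKO, 562 and 743 in cold WT and 743 and 986 in cold HIF2α AKO. The groups overlapped at TN. In cold, all HIF2α AKO mice lay above all WT mice, by a small margin at the closest (743.2 against 742.8). The study itself reported lower Hif2a mRNA in iWAT of HIF2α AKO mice by RT-qPCR. These counts cover the whole gene and not the deleted part alone, so genotypes are given as labelled. All 8 adipocyte markers were detected, with a summed CPM of 4631 to 12606 at TN and 15227 to 29422 in cold, and the 7 beige or brown adipocyte markers summed to between 17.6 and 70.9 at TN and between 3326 and 8542 in cold. Other marker sums were lower in cold, those of B and T cells (1005 to 1659 at TN, 520 to 917 in cold), progenitors (2224 to 2884 and 1420 to 1957) and, with overlap, macrophages (1253 to 2271 and 1024 to 1997, with 5 of 6 markers in the table). Endothelial markers summed to between 722 and 906 at TN and between 893 and 1014 in cold. The 12 skeletal muscle markers summed to 1589 in TN HIF2α AKO mouse 2 and 1298 in cold HIF2α AKO mouse 1, against 12.2 to 95.4 in the other 10 libraries. The 5 epithelial markers summed to 164 in TN WT mouse 3 and to between 1.60 and 6.23 elsewhere. In bulk tissue, fewer cells of a type and less RNA per cell cannot be told apart, and the part of these cell types in the results that follow was not tested.

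To ask how the members responded to temperature, cold was compared with TN within each genotype and on average over both. Hspa8 rose in cold in both genotypes, and on average Cirbp and Hsf1 fell. In WT, 2 of 10 members were called at an adjusted p under 0.05 (edgeR's quasi-likelihood F test, with p-values adjusted over all genes by the Benjamini-Hochberg method, here and throughout), beside 21.3% of all genes tested. In HIF2α AKO, 1 of 10 was called, beside 27% of all genes. Averaged over both genotypes, 3 of 10 were called, beside 48.8%, with 1 higher (24.8% of all genes) and 2 lower (24%). The median log2 fold change of the members was 0.21 in WT, -0.0039 in HIF2α AKO and 0.11 on average, beside -0.03, -0.05 and -0.05 for all genes.

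Counts of members whose groups did not overlap gave a similar picture. Cirbp, Rbm3, Hspa8 and Hsf1, which are 4 of 10, did not overlap between cold and TN in WT, beside 42% of all genes. Hspa8, Hsf1 and Hspb1, which are 3 of 10, did not overlap in HIF2α AKO, beside 50.5%. Only Hspa8, 1 of 10, kept all 6 cold mice apart from all 6 TN mice, beside 24.6%. Scaling bears on direction in this contrast. Of the genes called on average, 50.9% were higher in cold with TMM factors, 35.6% with upper-quartile factors and 21.5% with library size alone, and the median of all genes moved from -0.05 to -0.16 and -0.33.

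**Figure D2:**
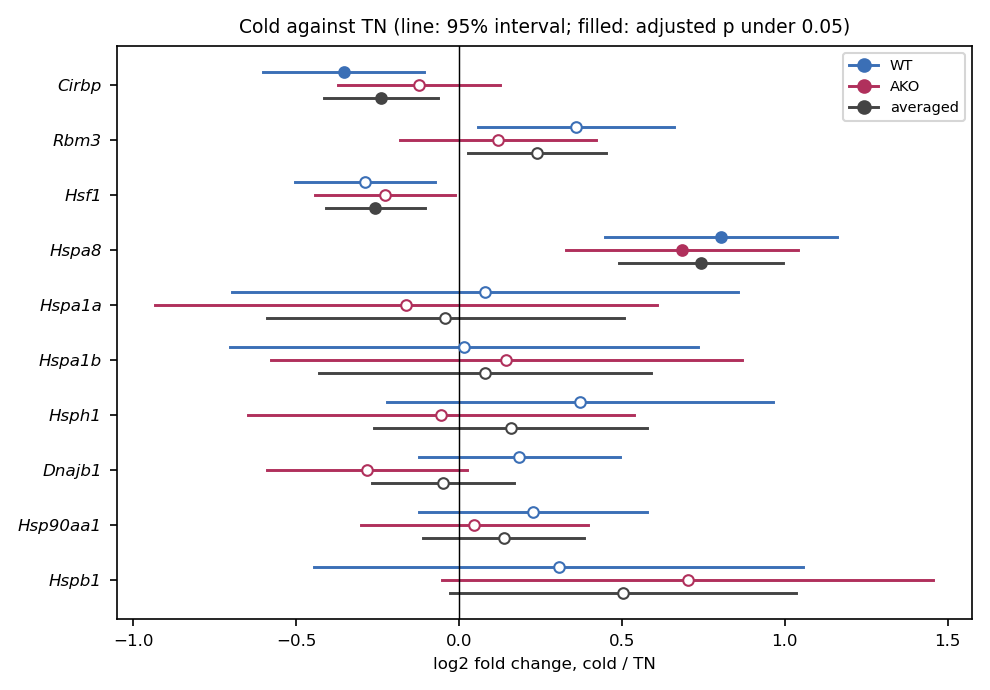
Log2 fold change of cold over TN for each member in WT, in HIF2α AKO and averaged over both, with 95% intervals. Filled points have an adjusted p under 0.05. Hspa8 lies to the right of 0 in all 3, and Cirbp and Hsf1 lie to the left.

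Cirbp (chr10:80165985-80172786, plus strand) was lower, not higher, after 3 days of cold. In TN WT its CPM was 82.6, 72.0 and 78.5, and in cold WT it was 64.9, 61.4 and 56.3. All cold WT mice lay under all TN WT mice. The log2 fold change in WT was -0.35 (SE 0.11, adjusted p = 0.0463), close to the limit. TN HIF2α AKO mice, at 54.6, 46.9 and 58.8, already lay within or under the range of cold WT mice, and cold HIF2α AKO mice had 46.9, 55.6 and 44.6. These last groups overlapped, with a log2 fold change of -0.12 (SE 0.11, adjusted p = 0.424). With library size alone this comparison passed, at an adjusted p of 0.049. On average the difference was -0.24 (SE 0.08, adjusted p = 0.0295). Cirbp lost its call in WT in 10 of 12 refits that each left out 1 library, with adjusted p between 0.0391 and 0.162 over all 12. On average it lost the call in 6 of 12, without TN WT mouse 1 (0.0689), TN HIF2α AKO mice 1 (0.0595) and 3 (0.0734), cold WT mouse 3 (0.0668) or cold HIF2α AKO mice 1 (0.0682) and 3 (0.0644).

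Rbm3 (chrX:8138975-8145880, minus strand), the closest relative of Cirbp among the members, had the opposite direction. Its CPM was 134, 146 and 111 in TN WT and 165, 188 and 149 in cold WT, so that the WT groups did not overlap. The log2 fold change in WT was 0.36 (SE 0.14), with an adjusted p of 0.0795, which did not pass. In HIF2α AKO, 158, 116 and 133 at TN enclosed the 147, 143 and 152 in cold, with a log2 fold change of 0.12 (SE 0.14, adjusted p = 0.523). On average Rbm3 stood at 0.24 (SE 0.10, adjusted p = 0.0590). It was called at 0.0272 without TN HIF2α AKO mouse 1 and at 0.0468 without cold WT mouse 3, and its sign turned with library size alone, to -0.05. An antisense gene, Rbm3os, overlaps exons of Rbm3, and the strand setting of the counting is not given in the sources used here.

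The ratio of Rbm3 to Cirbp within a library does not depend on scaling between libraries. It was 1.63, 2.02 and 1.42 in TN WT, the lowest group, and none of these overlapped any other library. The 3 other groups overlapped each other, with 2.90, 2.48 and 2.26 in TN HIF2α AKO, 2.54, 3.06 and 2.65 in cold WT and 3.13, 2.57 and 3.41 in cold HIF2α AKO. All TN WT mice thus lay under all others, while TN HIF2α AKO overlapped both cold groups. The gap, from 2.02 in TN WT to 2.26 in TN HIF2α AKO, was narrower than the range within TN WT. The ratio was examined after the values had been seen and was not tested.

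**Figure D3:**
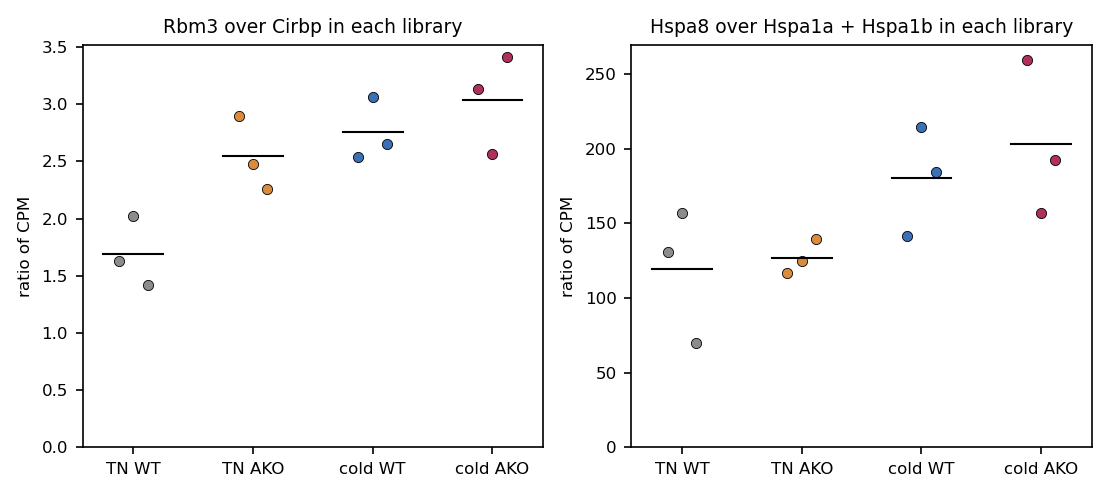
Ratio of CPM of Rbm3 to Cirbp (left) and of Hspa8 to the sum of Hspa1a and Hspa1b (right) in each mouse, by group, with the mean as a line. TN WT mice have the lowest Rbm3 to Cirbp ratios, between 1.42 and 2.02.

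Hspa8 (chr9:40800984-40810087, plus strand) encodes HSC70, which folds new proteins, uncoats clathrin vesicles and serves chaperone-mediated autophagy. Its CPM was 792, 950 and 1026 in TN WT and 1427, 1567 and 1839 in cold WT. In HIF2α AKO it was 1243, 1122 and 1071 at TN and 1885, 1603 and 2033 in cold. Every cold mouse was above every TN mouse of either genotype. Hspa8 rose 1.75-fold in WT (log2 0.80, SE 0.16, adjusted p = 0.00710) and 1.61-fold in HIF2α AKO (log2 0.68, SE 0.16, adjusted p = 0.0127), and on average by 0.74 on the log2 scale (SE 0.11, adjusted p = 0.000578). On average it passed under all 24 alternatives, with fold changes on the log2 scale from 0.46 with library size alone to 0.79. In HIF2α AKO the call was lost under 3 settings. Without both libraries with muscle transcripts, the log2 fold change was 0.65 and the adjusted p 0.0872. Without these and the library with epithelial transcripts, the adjusted p was 0.088. With library size alone, the log2 fold change was 0.41 and the adjusted p 0.0600. The genes of 2 small nucleolar RNAs, Snord14c and Snord14d, lie in introns of Hspa8 and have rows of their own.

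The heat-inducible pair Hspa1a (chr17:34969190-34972156) and Hspa1b (chr17:34956436-34959238), both single-exon genes on the minus strand, stayed near the bottom of the range in cold. Hspa1a had 1.60, 1.85 and 3.92 CPM in TN WT, 4.21, 3.11 and 2.58 in TN HIF2α AKO, 2.82, 1.97 and 2.98 in cold WT and 2.23, 3.66 and 2.92 in cold HIF2α AKO. Hspa1b had 4.46, 4.22 and 10.7 CPM in TN WT, 6.43, 5.90 and 5.09 in TN HIF2α AKO, 7.25, 5.34 and 7.0 in cold WT and 5.04, 6.55 and 7.65 in cold HIF2α AKO. The groups overlapped for both genes, and the highest Hspa1b value was that of TN WT mouse 3, the mouse with epithelial transcripts. Because 38.1 to 58.8% of the windows of 150 to 50 bases along the Hspa1a transcript also occur in Hspa1b, reads could not always be assigned to 1 of the pair. An opposite-strand gene, Gm20481, also overlaps exons of Hspa1a. Counted together, the pair had a log2 fold change on average of 0.04, with a 95% interval from -0.47 to 0.54 (adjusted p = 0.905). For the single genes the average sign changed with the libraries and the scaling used. Reads that aligned to several places were not counted on genes and made up between 4.40 and 5.71% of reads at TN and between 6.30 and 9.33% in cold. Their part in the HSP70 results was not tested. Hspa1b alone was called in cold, at 0.45 (adjusted p = 0.0396), when the 3 libraries with muscle or epithelial transcripts were left out.

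Hsph1 (chr5:149614287-149636376, minus strand) encodes HSP110, a nucleotide exchange factor of HSP70, and Dnajb1 (chr8:83608193-83612653, plus strand) encodes an HSP40 that hands clients to HSP70. Hsph1 had a CPM of 33.8, 57.2 and 55.8 in TN WT and 47.5, 52.4 and 89.8 in cold WT, with cold WT mouse 3 far above the other two. It had 101, 73.7 and 62.4 in TN HIF2α AKO and 82.9, 69.0 and 76.1 in cold HIF2α AKO. Cold and TN overlapped in both genotypes, with log2 fold changes of 0.37 (SE 0.27, adjusted p = 0.318) and -0.05 (SE 0.27, adjusted p = 0.892). Dnajb1 had 40.2, 48.5 and 39.5 in TN WT and 50.6, 47.1 and 48.1 in cold WT. In HIF2α AKO it had 74.7, 57.6 and 48.0 at TN and 48.9, 49.7 and 49.6 in cold. The 6 cold mice lay within a few CPM of each other and the TN HIF2α AKO mice were the widest group. The log2 fold changes of Dnajb1 were 0.19 in WT (SE 0.14, adjusted p = 0.337) and -0.28 in HIF2α AKO (SE 0.14, adjusted p = 0.145). Without TN HIF2α AKO mouse 3, the latter was -0.42 and passed, at an adjusted p of 0.0465. The fold change in HIF2α AKO also passed with library size alone, at 0.0305.

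Hsp90aa1 (chr12:110690605-110702728, minus strand), the inducible cytosolic HSP90, had a CPM of 175, 182 and 193 in TN WT, 222, 243 and 191 in TN HIF2α AKO, 179, 194 and 271 in cold WT and 251, 228 and 199 in cold HIF2α AKO. Cold WT mouse 3 was again the highest of its group, and the average log2 fold change was 0.14 (SE 0.11, adjusted p = 0.325). Hspb1 (chr5:135887919-135889563, plus strand), which encodes the small heat shock protein HSP27 (HSP25 in mouse), varied widely between mice of a group, with 35.3, 16.2 and 50.9 CPM in TN WT and 45.1, 31.1 and 50.4 in cold WT. In HIF2α AKO, 61.2, 55.2 and 45.4 in cold did not overlap 24.4, 38.6 and 36.4 at TN, but the log2 fold change of 0.70 (SE 0.34) did not pass, with an adjusted p of 0.139. It passed in HIF2α AKO, at 0.0429, without TN WT mouse 2, and when the HIF2α AKO groups were fitted alone, at 0.0307 in edgeR and 0.00409 in DESeq2. The average for Hspb1 was 0.50 (SE 0.24, adjusted p = 0.104), and it passed without TN WT mouse 3, at 0.71 and 0.0215, and without the 3 libraries with muscle or epithelial transcripts, at 0.72 and 0.0456.

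Hsf1 (chr15:76477422-76501913, plus strand), the regulator of the heat shock genes, fell on average by 0.26 on the log2 scale (SE 0.07, adjusted p = 0.0112). Its CPM was 47.3, 54.5 and 51.2 in TN WT and 44.9, 43.9 and 36.4 in cold WT. In HIF2α AKO it was 55.3, 48.5 and 54.1 at TN and 43.3, 44.3 and 47.4 in cold. Cold mice lay under TN mice in each genotype, although 1 cold HIF2α AKO mouse passed the lowest TN WT mouse by a small margin. Within a genotype, the log2 fold changes of -0.29 (SE 0.10, adjusted p = 0.0562) in WT and -0.23 (SE 0.10, adjusted p = 0.102) in HIF2α AKO did not pass. In WT it passed without cold WT mouse 2, at 0.0462, and under 5 of 14 other settings, with an adjusted p as low as 0.0177 with DESeq2 on all libraries. In HIF2α AKO it passed under 3 of 14, with an adjusted p as low as 0.0251 with library size alone. On average Hsf1 passed under all 24 alternatives, with adjusted p between 0.00181 and 0.0360.

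The genes around the members were described in lists, from cold against TN averaged over both genotypes. Over all genes tested, 24.8% were higher and 24% lower, and with library size alone 2102 of 15306 were higher and 7653 lower. Hspa9, the mitochondrial HSP70, rose by 1.77 (SE 0.17, adjusted p = 3.54e-05), its J-domain partners Dnaja3 by 1.71, Dnajc15 by 1.62 and Dnajc19 by 0.97, its exchange factor Grpel1 by 1.71, and the chaperonin Hspd1 with its lid Hspe1 by 1.29 and 0.84, all on the log2 scale. In CPM, Hspa9 averaged 342 ± 82.8 (SD, n = 3) in TN WT, 368 ± 80.9 in TN HIF2α AKO, 1107 ± 152 in cold WT and 1314 ± 325 in cold HIF2α AKO. These 7 genes kept their direction and call under all 24 alternatives. Of other proteins of mitochondria in the lists, Trap1 (0.77) and Grpel2 (0.25) rose less, whereas Mrpl18 (0.84) rose as much as Hspe1. Hspb6 (1.33), Bag2 (1.11), Dnajb9 (0.91) and Bag1 (0.89), which act elsewhere in the cell, also rose as much as some of the 7. These genes were put side by side after their values were seen, and no list of mitochondrial chaperones was tested.

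By list, 9 of 10 nucleotide exchange factors rose and 0 fell, with the smallest p for Grpel1, Bag5 (0.38) and Bag3 (0.65), and 4 were higher and 0 lower with library size alone. Of the J-domain proteins 12 of 23 rose and 3 fell (Dnajb5, Dnajc8 and Dnajc10), but with library size alone 7 were higher and 9 lower. HSP90 proteins and their co-chaperones had 8 of 18 higher, with the smallest p for Ppp5c (0.43), Ahsa1 (0.39) and Stub1 (0.41) and the largest fold change for Trap1, and 1 lower, Hsp90b1 (-0.38), which turned to 1 higher and 6 lower with library size alone. Other HSP70 and HSP110 proteins had 4 of 11 higher and 0 lower (Hspa9, Hspa4 at 0.47, Hspa12b at 0.43 and Hspa2 at 0.42), and 1 higher and 3 lower with that scaling. Chaperonins had 5 of 10 higher and 0 lower, namely Hspd1, Hspe1, Tcp1 (0.30), Cct3 (0.27) and Cct6a (0.24), and 2 higher and 3 lower with that scaling. Of 7 small heat shock proteins tested of 9 listed, 2 rose, Hspb6 (1.33) and Hspb8 (0.83), and 0 fell, against 1 in each direction with that scaling. Hspb8 lost its call in 9 of 12 refits without 1 library (all but TN WT mouse 3, TN HIF2α AKO mouse 2 and cold WT mouse 2), with adjusted p up to 0.0932. Hspa12b lost it in 6 of 12, without TN WT mouse 1 or 2, TN HIF2α AKO mouse 1 or 3, cold WT mouse 3 or cold HIF2α AKO mouse 1, with adjusted p up to 0.0672, and at 0.0721 without the libraries with muscle transcripts. The medians of these 6 lists lay between 0.17 and 0.32, beside -0.05 for all genes.

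HSF1 targets besides the members had 12 of 25 higher and 2 lower (Ier5 and Ubb), with the smallest p for Mrpl18 (0.84), a mitochondrial ribosomal protein, Hspd1 and Hspe1, and 5 in each direction with library size alone. Most genes of this list also stand in the other lists, among them Hspa4, Hspd1, Hspe1, Hspb8, Bag3, Ahsa1, Tcp1 and Ier5. Their calls are thus counted more than once. Of 6 heat shock factors and regulators tested of 9 listed, Hsbp1, which binds HSF1, was higher (0.37, not called without TN HIF2α AKO mouse 1 or cold WT mouse 3) and Ier5, an activator of HSF1, was lower (-0.79, SE 0.15, adjusted p = 0.00216). Other cold-shock and glycine-rich RNA-binding proteins, of which 15 of 19 listed were tested, split into 4 higher and 4 lower, and into 1 higher and 9 lower with library size alone. Carhsp1 (0.82), Ybx1 (0.26) and, at the limit, Ybx2 (0.54), all with cold-shock domains, were among those higher, and Rbmxl1 (-0.40), Rbm14 (-0.28), Tardbp (-0.27) and Nono (-0.18) were lower. The list of CLK and SRPK kinases and SR proteins, described for temperature-dependent splicing, had 0 of 16 higher and 8 lower. The smallest p were those of Srsf7 (-0.55), the kinase Srpk1 (-0.36) and Tra2a (-0.32). With DESeq2 size factors 7 were lower, and with upper-quartile factors and library size alone, which lower the median of all genes in cold, 13 and 16 were. In all of these 0 were higher, and 4 were lower without the 2 libraries with muscle transcripts.

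**Figure D4:**
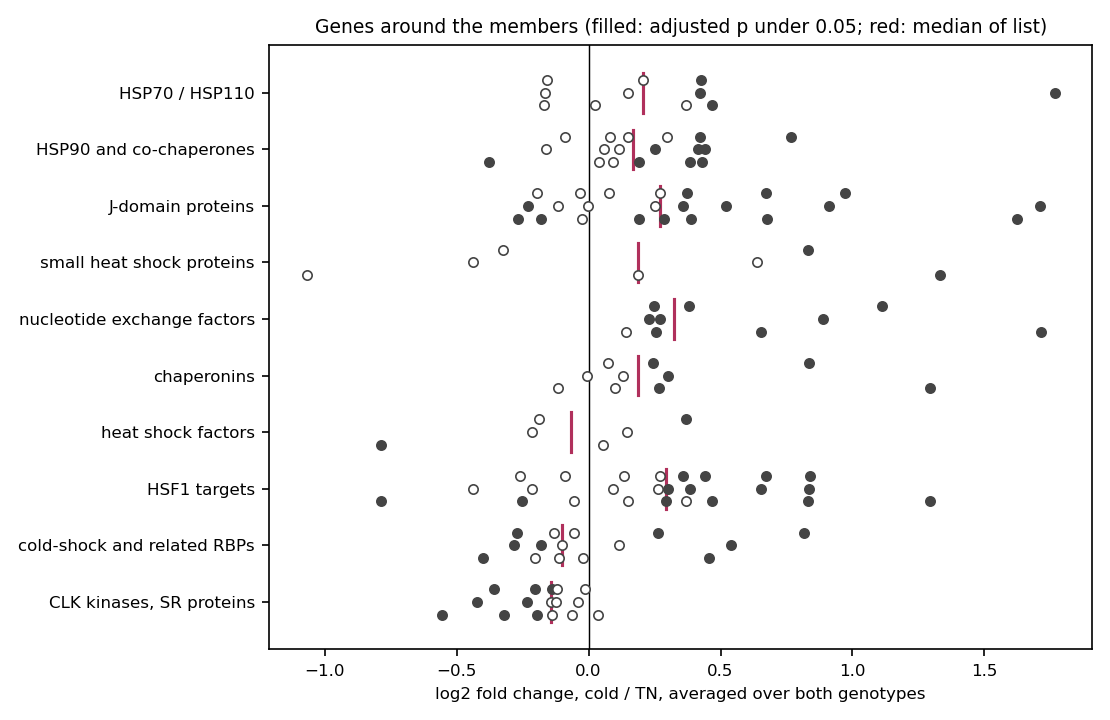
Log2 fold change of cold over TN, averaged over both genotypes, for the genes of 10 lists (1 point a gene, vertical position within a list is for display). Filled points have an adjusted p under 0.05 and red lines are list medians. Hspa9, Grpel1, Dnaja3 and Dnajc15 lie above 1.5, and the kinases and SR proteins of the last list lie mostly under 0.

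The comparison of HIF2α AKO with WT at each temperature asks whether the members depend on genotype. No member passed the adjusted limit in edgeR. At TN, 0 of 10 members were called, beside 0.00653% of all genes, and 3 of 10 had an unadjusted p under 0.05 (Cirbp, Dnajb1 and Hsph1), beside 2.91%. Cirbp, Hspa8 and Hsph1, 3 of 10, did not overlap between genotypes at TN, beside 7.69%. In cold, 0 of 10 were called, beside 0.00653%, only Cirbp had an unadjusted p under 0.05, beside 2.95%, and only Cirbp did not overlap, beside 7.53%. DESeq2 on all libraries called 1 member at TN, Cirbp, beside 0.0588% of all genes, and 0 members in cold, beside 0.0457%.

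Cirbp had lower values in HIF2α AKO at both temperatures. At TN, the highest HIF2α AKO value, 58.8 CPM, was under the lowest WT value, 72.0 CPM. The log2 fold change was -0.54 (95% interval -0.79 to -0.29), with an adjusted p of 0.999 in edgeR and of 0.0113 in DESeq2 on all libraries. In cold, 55.6 CPM was the highest HIF2α AKO value and 56.3 CPM the lowest WT value, with a log2 fold change of -0.31 (95% interval -0.56 to -0.06, adjusted p = 1 in edgeR). Cirbp ranked 6 at TN and 126 in cold among 15306 genes by p. Averaged over both temperatures, a contrast added after the data had been seen, Cirbp stood at -0.43 (SE 0.08, adjusted p = 0.886 in edgeR and 0.00458 in DESeq2). In that contrast edgeR called 0 of 10 members, beside 0.00653% of all genes, and 4 had an unadjusted p under 0.05, beside 3.64%, namely Cirbp, Hspa8, Hsph1 and Dnajb1. The study had itself listed Cirbp among genes that differed in these libraries in cold. Its limit on p was looser than the one used here and was not described as adjusted. The difference of Cirbp in cold is thus not independent evidence.

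**Figure D5:**
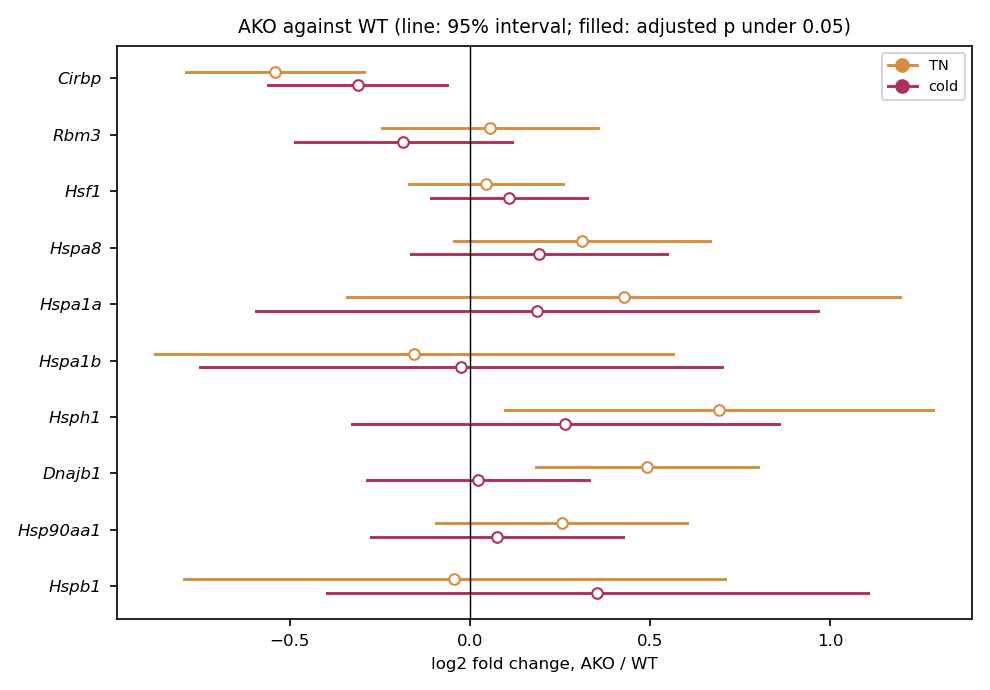
Log2 fold change of HIF2α AKO over WT at TN and in cold for each member, with 95% intervals. No point is filled, since no adjusted p was under 0.05 in edgeR. Cirbp lies left of 0 at both temperatures, at -0.54 and -0.31.

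Several chaperones had higher values in HIF2α AKO at TN that did not pass adjustment. Dnajb1 had a log2 fold change of 0.49 (SE 0.14) at TN and 0.02 (SE 0.14) in cold. Hsph1 had 0.69 (SE 0.27) at TN, with 3 of 3 HIF2α AKO mice above all WT mice, and 0.26 (SE 0.27) in cold. Hspa8 had 0.31 (SE 0.16) at TN and 0.19 (SE 0.16) in cold. Adjusted p-values were 0.999 at TN and 1 in cold for all 3. Rbm3 had 0.06 (95% interval -0.24 to 0.36) at TN and -0.18 (95% interval -0.49 to 0.12) in cold.

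Whether the response to cold differed between genotypes was tested as the interaction. No member was called, beside 0% of all genes, in edgeR or in DESeq2, and 1 of 10, Dnajb1, had an unadjusted p under 0.05, beside 2.14%. For Dnajb1 the interaction was -0.47 (95% interval -0.90 to -0.03, adjusted p = 1). For Cirbp it was 0.23 (95% interval -0.12 to 0.58) and for Hspa8 -0.12 (95% interval -0.62 to 0.38). A difference between genotypes in the cold response of these genes was not detectable with 3 mice per group.

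Over the 12 libraries, the genes with the pattern most like that of Cirbp, by Pearson's r of log2 CPM, were Zfp688 (0.92), Rasl11a (0.91), Kctd18 (0.90), Ahrr (0.89) and Srsf5 (0.88). Those most like Hsph1 were Stip1 (0.91), Chordc1 (0.91), Dnaja1 (0.88), Snx27 (0.84) and Hspa5 (0.83). Stip1, Chordc1 and Dnaja1 are co-chaperones of HSP90 or HSP70, and Hspa5 is the HSP70 of the endoplasmic reticulum. These coefficients describe 12 libraries in 4 groups and share the groups' differences and scaling. Among all pairs of members, the coefficients of largest size after the group means were removed were 0.91 for Hspa1a with Hspa1b, 0.87 for Hspa8 with Hsph1 and -0.84 for Rbm3 with Hspb1.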

How the data were processed

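Raw read counts per gene, as deposited by the authors for 12 iWAT libraries, were analysed. Per the submitters' processing notes, the tools were Trim Galore 0.4.4, STAR 2.6.1d, HTSeq 0.13.5 and DESeq2 1.30.0 with GRCm38 (mm10); the annotation and strand setting are not given in the sources used here. Reads not assigned to a gene, those aligned to several places included, were 21.9 to 27.0% of those listed and were left out. Groups followed the labels.

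Counts were fitted with edgeR 4.0.16 (R 4.3.3; TMM, filterByExpr at its settings of 10 for the count and 15 for the total, quasi-likelihood F test, 1 factor of 4 groups over all libraries), with Benjamini-Hochberg adjustment over 15306 genes and a limit of 0.05. The biological coefficient of variation was 0.202. Levels are CPM after TMM scaling, and log2 CPM used a prior count of 2. Alternatives were other scalings and filters, DESeq2 1.42.0, limma 3.58.1 voom, a replicate block and left-out libraries. The processing was tested on simulated data in which few genes changed, as many up as down. That test does not bear on scaling where many genes differ, as between cold and TN here.

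Named genes were the members, up to 3 called genes of smallest p from each of 12 lists, and the 5 genes most like Cirbp and Hsph1; other list genes were named after their values were seen, and 1 gene that met the rule is not reported here. Members and lists were chosen with earlier results of these data known. Gene positions came from GENCODE for GRCm38 and upstream sequences from RefSeq.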

Additional observations from a re-analysis of the deposited data

How the results depend on the processing

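With 3 mice per group, several counts of called members hung on single libraries. In WT, the count in cold against TN, 2 in the report, was 1 with edgeR on both groups alone and without the 3 libraries with muscle or epithelial transcripts, 1 to 2 when single libraries were left out, and 3 under 6 other settings (DESeq2 size factors, upper-quartile factors, library size alone, no filter, DESeq2 on all libraries and voom with quality weights). In HIF2α AKO, 1 in the report, it was 2 with upper-quartile factors and with voom with sample quality weights. It was also 2 with edgeR or DESeq2 on both groups alone. With library size alone it was 3, namely Cirbp, Dnajb1 and Hsf1, and not Hspa8. It was 0 without the libraries with muscle transcripts and without these and the epithelial one. With single libraries left out it was 1 to 2. On average, 3 in the report, it was 5 without the 3 libraries with muscle or epithelial transcripts. It was 4 with library size alone, with DESeq2 on all libraries and with voom with quality weights. With single libraries left out it was 2 to 4. For HIF2α AKO against WT, it was 1 (Cirbp) in place of 0 with DESeq2 at TN, on all libraries or on both groups, and with DESeq2 averaged over both temperatures. It was 0 in every refit without 1 library, but these refits used edgeR alone. The DESeq2 calls of Cirbp were not refitted with a library left out. Both 2-group fits could not be made for averages and the interaction. Leaving out the muscle and epithelial libraries was chosen after seeing the data.

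Mice with the same number in different groups did not deviate together: 6 of 18 pairs had a correlation above 0.1, over a range from -0.76 to 0.64, and a library correlated best with its own number in 9 of 36 cases. With the number as a replicate block, 1 member was called in WT, 1 in HIF2α AKO and 2 on average. Cirbp was the member no longer called, at an adjusted p of 0.0793 in WT and 0.0524 on average.

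The sign of some small differences in cold against TN turned. With library size alone, Rbm3 was at -0.16 in HIF2α AKO and -0.046 on average, Dnajb1 at -0.12 in WT, Hsp90aa1 at -0.086 in WT and Hspa1b at -0.19 on average. Hspa1b was at -0.028 with upper-quartile factors and between -0.042 and 0.37 with single libraries left out. Hspa1a, at -0.04 on average in the report's fit, was at 0.030 with voom, 0.30 with voom and quality weights, 0.019 without the libraries with muscle transcripts, 0.27 without the 3 libraries, 0.037 when summed with Hspa1b, and between -0.16 and 0.21 with single libraries left out. Hspb1 in WT was at -0.044 without TN WT mouse 2 and reached 0.71 without TN WT mouse 3. The causes were not tested.

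Other calls changed with the tool or scaling. Rbm3 passed on average with DESeq2 (adjusted p = 0.0358) and with voom and quality weights (0.0108). Hspa4, Hspa12b, Ppp5c, Ahsa1, Stub1, Bag5, Tcp1, Hspb8 and Hsbp1 kept their direction but not their call with library size alone. Over all genes, the alternatives called between 1381 and 5888 genes in WT, 1514 and 6365 in HIF2α AKO and 5867 and 9755 on average, against 3259, 4138 and 7467, and at most 14 for genotype. The pair Hspa1a and Hspa1b rested on only 150 to 430 counts a library together.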

Other observations

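Cirbp and several heat shock genes are known to cycle over the day with body temperature, so clock and immediate early genes were described as well. Of 12 core clock genes tested, 6 were higher and 1, Npas2, lower in cold against TN on average, with the smallest p for Tef (1.38 on the log2 scale, SE 0.13, adjusted p = 2.41e-05 by edgeR's quasi-likelihood test), Per3 (1.20) and Per2 (1.08), which encode a clock output factor and period proteins. Dbp, another output factor named after its value was seen, rose by 1.28. With library size alone, 4 were higher and 2 lower. Of 12 immediate early genes, which respond within minutes to stimuli, handling included, Dusp1 (0.98) and Ier3 (0.69) were higher and Zfp36 (-0.49) lower, and with library size alone 1 was higher and 4 lower. The time of collection is not given in the sources used here, and the part of clock phase or handling in the members' values was not tested.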
